A study of Mus musculus with 2 samples.

Results

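A set of 9 voltage-gated potassium channel genes of cardiac repolarization was examined in mouse heart RNA: Kcnd2, Kcnd3, Kcna4, Kcnip2, Kcna5, Kcnv2, Kcnh2, Kcnq1 and Kcne1. They were taken by gene symbol from the deposited transcript tables, and each of the 9 symbols matched 1 gene among the 55450 annotated mouse genes. Total RNA came from heart tissue, with no treatment in the labels, of 2 adult female B6CASTF1/J mice, a hybrid strain with 1 C57BL/6J and 1 CAST/EiJ parent, aged 8 to 10 months. Replicate 2 was animal 3 of the labels, and replicate 1 was animal 1. Both animals form 1 group, so the measurements are levels, ratios within a heart, isoform shares and the spread between the hearts, with 1 library per heart and no test between groups.

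After each beat, cardiac myocytes return to rest because potassium leaves through channels that open on depolarization. Pore-forming alpha subunits assemble into a channel, and accessory subunits change its trafficking and gating. In mouse ventricle the early repolarization rests largely on the transient outward current of Kv4 channels and on slowly inactivating currents such as that of Kv1.5. The rapid and slow delayed rectifiers, carried by the products of Kcnh2 and Kcnq1, are best known from larger mammals and from inherited long QT syndrome in humans.

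Levels are given in TPM, which divides reads by transcript length and sums to 1000000 per library. The gene tables held 40553237 expected counts in replicate 2 and 42223411 in replicate 1. The members had between 71 counts (Kcna4) and 5290 counts (Kcnip2) in replicate 2, and between 65 and 5729 counts for the same genes in replicate 1. The deposited tables give credibility bounds for each TPM, a range for the estimate within a library that does not cover variation between animals. Cardiomyocyte markers were abundant, with Myh6 at 7761.02 TPM in replicate 2 and 8814.12 TPM in replicate 1. In bulk tissue RNA, fewer cells of a type and less RNA per cell cannot be told apart.

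At the level of single genes, 8 of the 9 members reached 1 TPM or more in both hearts, and Kcna4 did not. Over 21951 protein-coding genes the share was 48.8%. The members were picked as known cardiac channels, so their count is a description. At 5 TPM in both hearts 3 members remained: Kcnip2, Kcnh2 and Kcnq1. By mean TPM the order was Kcnip2, Kcnh2, Kcnq1, Kcnd2, Kcnd3, Kcna5, Kcne1, Kcnv2 and Kcna4. Only the neighbours Kcna5 and Kcne1 changed places between the hearts. The credibility intervals of neighbours also overlapped in at least 1 heart for Kcnd2 and Kcnd3 and for Kcne1 and Kcnv2. Every other neighbouring pair was apart in both hearts.

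**Figure D1:**
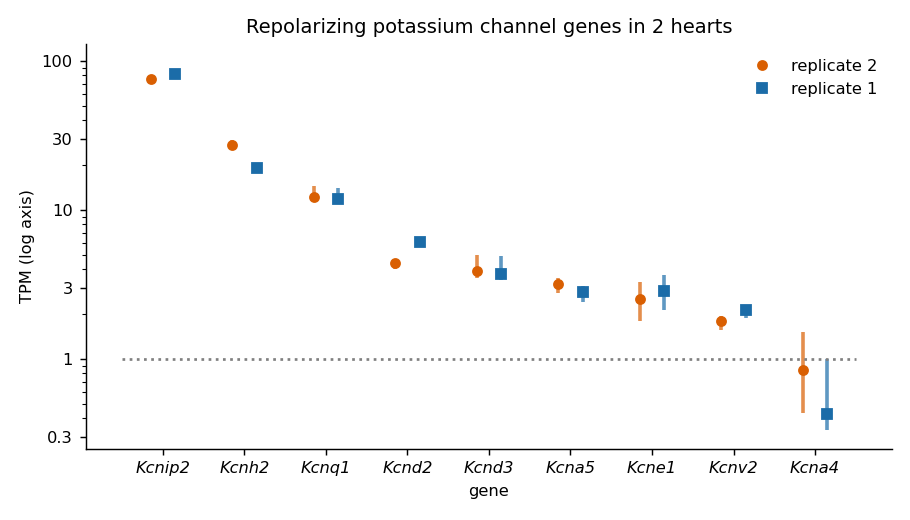
Level of each member gene as TPM on a log axis, with replicate 2 as circles and replicate 1 as squares. Vertical lines are the deposited credibility bounds and the dotted line marks 1 TPM. Kcnip2 stood highest, at 75.16 TPM in replicate 2 and 82.28 TPM in replicate 1, and Kcna4 was the only member below 1 TPM in both hearts.

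The transient outward current is carried by Kv4.2 and Kv4.3, the products of Kcnd2 and Kcnd3, with Kv1.4 from Kcna4 forming its slowly recovering part. Kcnd2 (chr6:21215503-21729805, plus strand, mm10) was at 4.43 TPM in replicate 2 and 6.13 TPM in replicate 1, a mean of 5.28 ± 1.20 TPM (SD, n = 2). The credibility intervals of the hearts did not overlap, at 4.04 to 4.65 TPM in replicate 2 and 5.65 to 6.38 TPM in replicate 1. Kcnd3 (chr3:105452330-105674002, plus strand) was nearly level between the hearts at 3.87 TPM in replicate 2 and 3.73 TPM in replicate 1, from 742 counts in each. Its mean was 3.80 ± 0.10 TPM.

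Kcnd2 exceeded Kcnd3 in both hearts, but by little in one of them. The log2 ratio of Kcnd2 over Kcnd3 was 0.19 in replicate 2 and 0.72 in replicate 1, a mean of 0.45 ± 0.37 (SD, n = 2), or 1.37-fold. The spread between the hearts was thus almost as large as the difference between the genes. No ratio of genes within a heart was tested, since the smallest two-sided p that an exact sign-flip test allows with 2 hearts is 0.5.

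Kcna4 (chr2:107290639-107298502, plus strand) was the lowest member. Replicate 2 had 0.84 TPM from 71 counts and replicate 1 had 0.43 TPM from 65 counts. The credibility bounds were wide, 0.43 to 1.52 TPM in replicate 2 and 0.33 to 1.00 TPM in replicate 1, and they overlapped. The coding transcript Kcna4-201 was at 0.42 TPM in replicate 2 and 0.41 TPM in replicate 1. The rest of the replicate 2 level sat on Kcna4-202, a noncoding transcript of 370 bases, which had 0.41 TPM from 3.79 counts in replicate 2 and 0.02 TPM from 0.19 counts in replicate 1. Kcnd2 was 5.22-fold over Kcna4 in replicate 2 and 14.0-fold in replicate 1, a mean log2 ratio of 3.09 ± 1.00. With coding transcripts alone, an alternative added after the data were seen, that mean was 3.62 ± 0.35.

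Kcnip2 encodes KChIP2, the cytosolic calcium-binding subunit that brings Kv4 channels to the membrane and slows their inactivation. It was the most abundant member and ranked 661 of 21951 protein-coding genes by mean TPM. Kcnip2 (chr19:45791839-45816061, minus strand) was at 75.16 TPM in replicate 2 and 82.28 TPM in replicate 1, a mean of 78.72 ± 5.03 TPM. Its level was 16.9-fold that of Kcnd2 in replicate 2 and 13.4-fold in replicate 1, with a mean log2 ratio of 3.91 ± 0.24. Set against the summed TPM of Kcnd2 and Kcnd3, Kcnip2 was 9.06-fold in replicate 2 and 8.34-fold in replicate 1. These ratios are per transcript length: in expected counts, which are not divided by length, Kcnip2 was 3.37 ± 0.22 times the sum of Kcnd2 and Kcnd3.

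A small coding exon of Kcnip2 separated its 2 leading isoforms. Kcnip2-209 encodes 270 residues and holds the exon, and Kcnip2-202 encodes 252 residues and skips it. The exon has 54 bases, or 18 codons, and lies at chr19:45796279-45796332 on the minus strand of mm10. It is shown, with a Kcnd3 exon of the same kind, because the choice of these exons is what the isoform shares measure. Both are written 5′ to 3′ in lower case with no part marked in capitals.
Kcnip2 alternative coding exon: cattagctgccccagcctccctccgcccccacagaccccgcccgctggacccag
Kcnd3 alternative coding exon: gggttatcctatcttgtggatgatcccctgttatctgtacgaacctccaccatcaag

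In the FASTQ-derived table, Kcnip2 transcripts that hold the 54-base exon made 31.8% of the TPM of those that hold or skip it in replicate 2 and 34.9% in replicate 1. In the alignment-derived table they made 24.9% in replicate 2 and 29.2% in replicate 1. The skipping form therefore led in both hearts and both tables. Of all Kcnip2 TPM, Kcnip2-202 alone held 57.1 ± 6.20% in the FASTQ-derived table and 61.4 ± 3.72% in the alignment-derived one. Kcnip2-209 held 32.5 ± 2.01% and 26.6 ± 2.92% in the same order of tables (SD, n = 2).

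The tables differed on the minor Kcnip2 forms. Kcnip2-208, which encodes 220 residues, was listed at 0 in the FASTQ-derived table and at 9.82% of Kcnip2 TPM in both hearts in the alignment-derived one. It has 0 stretches of 31 bases that no other transcript holds. Kcnip2-203, which starts downstream of the main start, held 7.55 ± 3.94% in the FASTQ-derived table and was listed at 0 in the other.

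The Kcnd3 exon has 57 bases, or 19 codons, and lies at chr3:105666962-105667018 on the plus strand of mm10. It separates a Kv4.3 of 655 residues from one of 636. Kcnd3 transcripts with the exon made 26.9% of the TPM of coding forms that hold or skip it in replicate 2 and 22.1% in replicate 1 in the FASTQ-derived table. The alignment-derived table gave 27.6% in replicate 2 and 20.5% in replicate 1. The exon-skipping Kcnd3-202 was the main isoform in both tables, with 71.2 ± 2.68% and 72.1 ± 3.80% of the gene's TPM. In expected counts, which are not divided by length, it held 88.1 ± 1.99%. The exon-holding forms rested on few counts. Kcnd3-201 had 36.2 in replicate 2 and 39.54 in replicate 1, and Kcnd3-203 had 42.88 in replicate 2 and 11.43 in replicate 1. The longer protein was divided over Kcnd3-201 and Kcnd3-203, and Kcnd3-201 has 0 stretches of 31 bases of its own.

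Kv1.5, the product of Kcna5, carries a rapidly activating, slowly inactivating current in mouse ventricle. Kcna5 (chr6:126532551-126535412, minus strand) is a gene of 1 annotated exon and 1 transcript. It was at 3.19 TPM in replicate 2 and 2.80 TPM in replicate 1, a mean of 3.00 ± 0.28 TPM, with overlapping credibility intervals. Kcna5 was 3.76-fold over Kcna4 in replicate 2 and 6.39-fold in replicate 1. Of the 2832 stretches of 31 bases in its transcript, 122 (4.31%) also occur in transcripts of Kcna6, itself at 0.20 TPM in replicate 2 and 0.32 TPM in replicate 1, so reads there could be assigned to either gene.

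Kcnv2 encodes Kv8.2, a silent subunit that forms no channel alone and modifies channels that it joins. Kcnv2 (chr19:27322588-27337179, plus strand) was at 1.79 TPM in replicate 2 and 2.14 TPM in replicate 1, with overlapping credibility intervals. Kcng2, which encodes another silent subunit, was far higher than Kcnv2 in both hearts, with 41.42 TPM in replicate 2 and 62.80 TPM in replicate 1.

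Kcnh2 encodes the ERG channel of the rapid delayed rectifier, the target of many drugs that prolong the QT interval in humans. Kcnh2 (chr5:24319589-24351604, minus strand) was at 27.22 TPM in replicate 2 and 19.00 TPM in replicate 1, a mean of 23.11 ± 5.81 TPM. The credibility intervals were apart, at 25.66 to 29.42 TPM in replicate 2 and 17.89 to 20.60 TPM in replicate 1. It was the most abundant alpha subunit among the members in both hearts.

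Most Kcnh2 RNA was assigned to 2 of its 5 annotated transcripts, which have different starts. In the alignment-derived table Kcnh2-201 held 52.1 ± 0.97% and Kcnh2-202 38.7 ± 2.36% of Kcnh2 TPM, and 3 noncoding transcripts with starts of their own held the rest. Kcnh2-201 begins at the upstream start and encodes 1162 residues. Kcnh2-202 begins 22013 bases further downstream, encodes 820 residues and has the layout of the short form known as 1b, whose amino end lacks the PAS domain. The first coding stretches of the transcripts are shown because they are what sets the forms apart, at chr5:24351208-24351283 for Kcnh2-201 and chr5:24329165-24329272 for Kcnh2-202, both on the minus strand of mm10. They are written 5′ to 3′ with the start codon in capitals.
Kcnh2-201 first coding stretch: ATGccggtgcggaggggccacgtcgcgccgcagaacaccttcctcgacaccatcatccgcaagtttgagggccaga
Kcnh2-202 first coding stretch: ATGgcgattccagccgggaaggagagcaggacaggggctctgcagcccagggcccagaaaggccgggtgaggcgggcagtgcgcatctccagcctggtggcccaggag

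**Figure D2:**
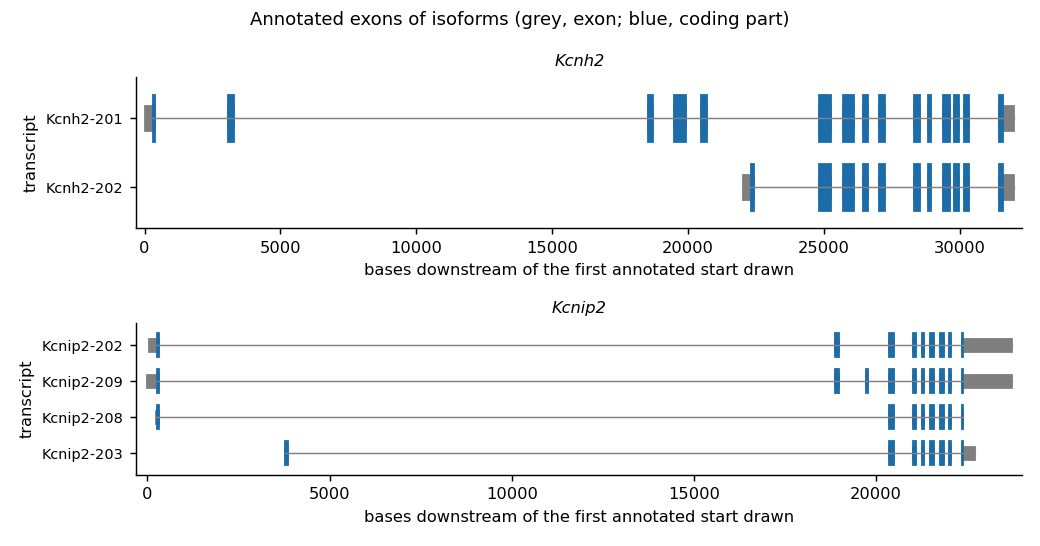
Annotated exons of the leading Kcnh2 and Kcnip2 isoforms, drawn to scale as bases downstream of the first start drawn, with exons in grey and their coding parts in blue. Kcnh2-202 starts 22013 bases inside the gene with its own first coding exon, and the 54-base exon of Kcnip2-209 is missing from the other 3 Kcnip2 forms.

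In the alignment-derived table Kcnh2-201 was at 14.36 TPM in replicate 2 and 9.77 TPM in replicate 1. Kcnh2-202 was at 10.06 TPM in replicate 2 and 7.66 TPM in replicate 1. Both forms were thus higher in replicate 2. Of the summed TPM of the pair, Kcnh2-202 made 34.6% in replicate 2 and 40.4% in replicate 1 in the FASTQ-derived table, and 41.2% in replicate 2 and 43.9% in replicate 1 in the alignment-derived table. The long form led in both hearts and both tables. The forms can be told apart by sequence: 1451 stretches of 31 bases occur in Kcnh2-201 alone and 425 in Kcnh2-202 alone.

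The RefSeq start of Kcnh2 in the promoter table used here coincides with the start of Kcnh2-202, so the window upstream of it is the internal promoter. Its 250 bases lie at chr5:24329592-24329841 on the minus strand (RefSeq, GRCm38.p6), and are written 5′ to 3′ with each GGGCGG in capitals.
Kcnh2 promoter: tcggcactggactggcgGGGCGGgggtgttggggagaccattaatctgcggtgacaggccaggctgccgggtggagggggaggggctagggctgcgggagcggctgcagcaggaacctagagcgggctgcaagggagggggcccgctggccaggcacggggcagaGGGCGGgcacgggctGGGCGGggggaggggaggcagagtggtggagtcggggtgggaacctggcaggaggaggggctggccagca

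The window held 3 matches to GGGCGG, the letters of a GC box, counted on both strands. Promoters of 6 of the 9 members were in the table, and 4 of these held at least 1 match, against 32.7% of 32851 promoters of the same length. Those 4 were Kcna4, Kcnd2, Kcnh2 and Kcnip2. None of the 6 held TATAAA on either strand, against 12.4% of all promoters. A match to these letters describes the sequence and is no evidence of binding.

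Kcnq1 encodes the alpha subunit of the slow delayed rectifier and Kcne1 its single-pass accessory subunit minK, which slows the opening of the channel. Kcnq1 (chr7:143106362-143427042, plus strand) was at 12.15 TPM in replicate 2 and 11.85 TPM in replicate 1, a mean of 12.00 ± 0.21 TPM. Its credibility intervals overlapped and its spread was small. Kcnh2 was 2.24-fold over Kcnq1 in replicate 2 and 1.60-fold in replicate 1, a mean log2 ratio of 0.92 ± 0.34.

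Kcne1 (chr16:92345982-92359468, minus strand) was at 2.52 TPM from 103 counts in replicate 2 and 2.87 TPM from 97 counts in replicate 1. Kcnq1 exceeded it 4.81-fold in replicate 2 and 4.12-fold in replicate 1, a mean log2 ratio of 2.15 ± 0.16. In the FASTQ-derived table that mean was 2.44 ± 0.07, and in expected counts, which are not divided by length, it was 3.54. The Kcne1 level rests largely on a short transcript. Kcne1-202, of 602 bases, held 76.6 ± 5.56% of Kcne1 TPM in the alignment-derived table but 35.2 ± 7.14% of the counts. Kcne1-201, of 3174 bases, held most of the counts, and both transcripts encode the same number of residues, 129.

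The 668-residue Kcnq1-201 was the main Kcnq1 isoform, with 76.6 ± 2.07% of the gene's TPM in the FASTQ-derived table and 97.0 ± 2.48% in the alignment-derived table. Kcnq1-202, which encodes 440 residues, accounted for most of the gap: 18.2 ± 1.92% in the FASTQ-derived table and 1.40 ± 1.98% in the other. Only 26 stretches of 31 bases are found in Kcnq1-202 and in no other transcript. The antisense RNA Kcnq1ot1 lies on the opposite strand inside Kcnq1. The sources used here do not say whether counting used strand, and 98 of the 4083 stretches of 31 bases in Kcnq1 transcripts also occur, reversed, in Kcnq1ot1. The overlapping antisense gene Kcnd3os shares 136 of 9642 with Kcnd3 in the same way, and Gm26673 shares 122 of 2832 with Kcna5. If counting ignored strand, a small part of the reads of Kcnq1, Kcnd3 and Kcna5 could be assigned to either gene.

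**Figure D3:**
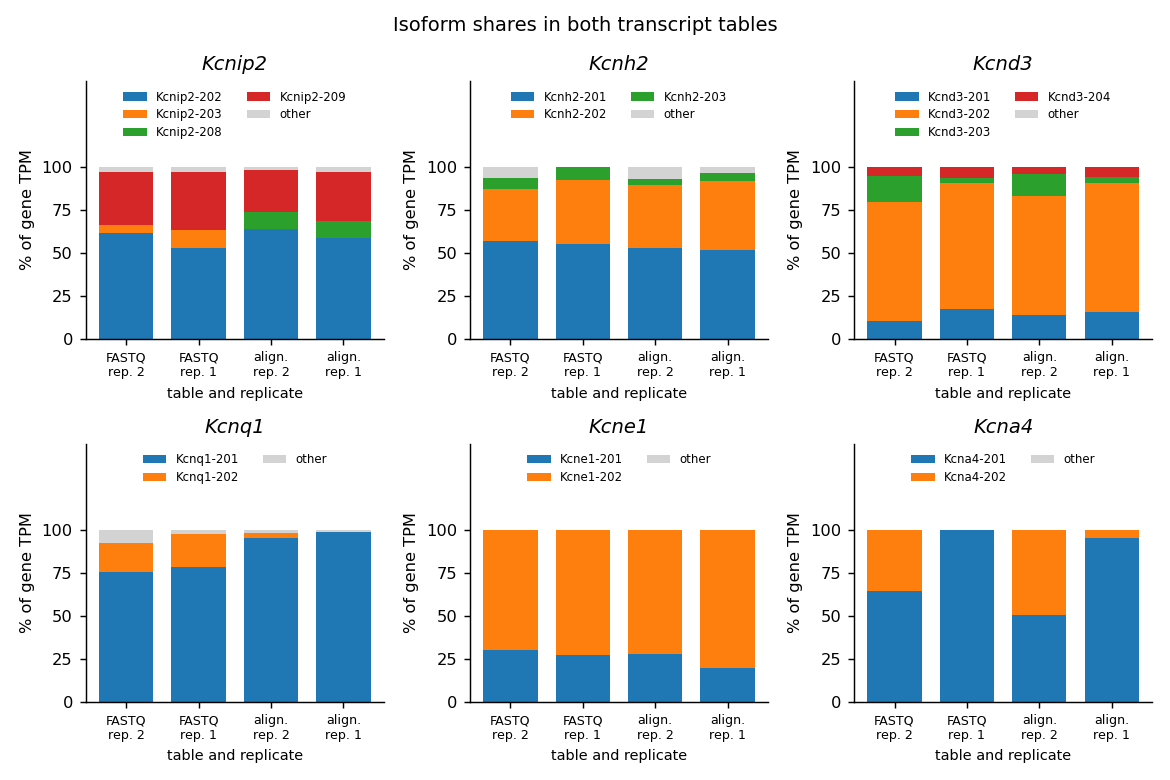
Share of each gene's TPM held by its transcripts, for the 6 members with more than 1 annotated transcript. Each panel has 4 bars, the FASTQ-derived table left of the alignment-derived table and replicate 2 left of replicate 1, and transcripts under 5% in both tables are pooled as other. The main isoform was the same in both tables for each gene, while Kcnip2-208, Kcnip2-203 and Kcnq1-202 changed with the table.

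All 9 members had the same main isoform by mean TPM in the FASTQ-derived and the alignment-derived table, against 82.7% of 10951 compared protein-coding genes. By counts the main form of Kcne1 was Kcne1-201 in both tables, and the other 8 kept the form that led by TPM. Kcnd2, Kcna5 and Kcnv2 have 1 annotated transcript and could not differ. Of the other 6 members, 5 were among the 10066 compared genes with more than 1 transcript, of which 81.2% kept their main isoform. No member was 2-fold or more apart between the tables in both hearts, a state that 5.21% of 12375 genes showed. The log2 ratio of FASTQ-derived over alignment-derived TPM was lowest for Kcna4, at -0.32 in replicate 2 and -0.12 in replicate 1. It was highest for Kcnq1, at 0.23 in replicate 2 and 0.17 in replicate 1.

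Between the hearts, 0 of the 8 members with a mean of 1 TPM or more were 2-fold apart, against 1.42% of 11871 compared genes. These log2 ratios of replicate 2 over replicate 1 were computed on TPM + 0.1 and centred on the median of the compared genes, which lay at -0.18 before centring. Kcnh2 was the only one of these 8 members beyond 1.5-fold, at 0.70 (1.62-fold higher in replicate 2). Of the compared genes, 5.79% lay that far apart. Without centring its ratio was 0.52, which is below 1.5-fold. Kcna5 followed at 0.37, Kcnd3 at 0.23 and Kcnq1 at 0.22, and without centring these were 0.18, 0.05 and 0.04. Kcnd2 was lower in replicate 2, at -0.28 with centring and -0.46 without.

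Kcnip2 at 0.05, Kcne1 at 0.00 and Kcnv2 at -0.06 differed least after centring. Without centring their values were -0.13, -0.18 and -0.25, and Kcnq1 and Kcnd3 differed least. Credibility intervals did not overlap for 3 of the 8 compared members, Kcnh2, Kcnd2 and Kcnip2, against 28% of the compared genes. These intervals are of TPM before centring. Kcnip2 was lower in replicate 2 there, at 72.10 to 77.15 TPM against 78.75 to 84.09 TPM in replicate 1. Kcna4 had a log2 ratio of 1.01 but was not compared because its mean was below 1 TPM. The ratio was 0.19 with its coding transcript alone and 0.28 in expected counts scaled by TMM factors.

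**Figure D4:**
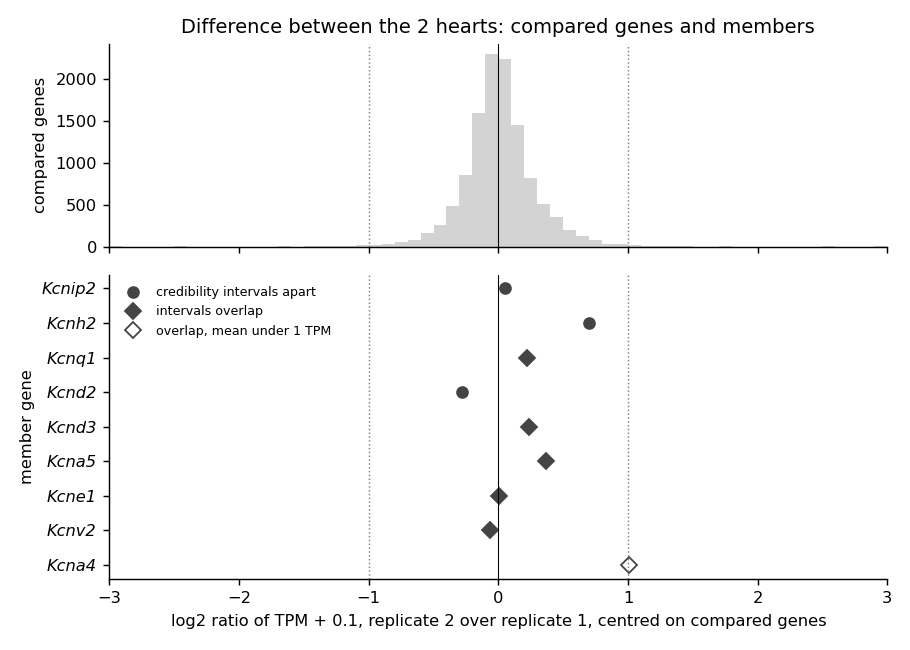
Log2 ratio of TPM + 0.1, replicate 2 over replicate 1, centred on the compared genes. The upper panel counts the 11871 compared genes in bins of 0.1, with values beyond 3 drawn in the end bins, and the lower panel gives each member. Kcnh2 lies at 0.70, Kcnd2 at -0.28, and dotted lines mark 2-fold.

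Markers of several cell types also differed between these libraries. The sums below are of TPM before centring. By centred ratio, 5935 of the 11871 compared genes were lower in replicate 2. All 5 atrial markers (Nppa, Myl7, Myl4, Sln and Bmp10) were lower in replicate 2, with a summed level of 730.87 TPM in replicate 2 and 1250.81 TPM in replicate 1 and a median centred log2 ratio of -0.55. The 5 cardiomyocyte markers summed to 19037.5 TPM in replicate 2 and 22142.2 TPM in replicate 1, with a median ratio of -0.0006. Of these, 2 were higher and 3 lower in replicate 2, from Actc1 at -0.28 to Tnnt2 at 0.13. The 4 ventricular markers summed to 12527.3 TPM in replicate 2 and 13732.4 TPM in replicate 1, with a median ratio of 0.04. By centred ratio 3 ventricular markers were higher and 1 lower in replicate 2, from Hey2 at -0.31 to Irx4 at 0.54. The 6 conduction system markers summed to 7.15 TPM in replicate 2 and 8.60 TPM in replicate 1, but 2 of the 3 compared were higher in replicate 2, with a median ratio of 0.34. Fibroblast markers were lower in replicate 2 for 4 of 4 genes, though Dcn at -0.04 and Col1a1 at -0.03 were nearly level. The 4 summed to 136.4 TPM in replicate 2 and 164.36 TPM in replicate 1, with a median ratio of -0.13. Endothelial markers were lower in replicate 2 for 3 of 4 genes, with a sum of 98.77 TPM in replicate 2 and 130.62 TPM in replicate 1 and a median ratio of -0.18. Sums of the 4 smooth muscle markers were 46.53 TPM in replicate 2 and 45.03 TPM in replicate 1. By centred ratio 3 of them were higher and 1 lower in replicate 2, with a median ratio of 0.17. Those of the 4 macrophage markers were 46.38 TPM in replicate 2 and 56.14 TPM in replicate 1. By centred ratio 2 macrophage markers were higher and 2 lower in replicate 2, with a median ratio of -0.07. The 8 neuron and glia markers summed to 1.79 TPM in replicate 2 and 3.05 TPM in replicate 1, with Th listed at 0 in both. The part of these shifts in the Kcnh2 and Kcnd2 values was not tested.

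Kcnh2 made a larger share of the members' alpha subunit RNA in replicate 2. The 6 member genes that encode conducting alpha subunits summed to 51.70 TPM in replicate 2 and 43.94 TPM in replicate 1. Kcnh2 made 52.6% of that sum in replicate 2 and 43.2% in replicate 1. Kcnq1 made 23.5% in replicate 2 and 27.0% in replicate 1. The share of Kcnd2 was 8.57% in replicate 2 and 14.0% in replicate 1, while Kcnd3, Kcna5 and Kcna4 together stayed below either Kcnh2 or Kcnq1 in both hearts.

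Set among the wider family, the members held part of the RNA of the 39 alpha subunit genes described here. The 6 conducting member genes made 51.70 of 101.66 TPM in replicate 2 and 43.94 of 116.52 TPM in replicate 1. Of 32 other voltage-gated alpha subunit genes described here, 3 reached 1 TPM or more in both hearts: Kcng2, Kcna7 and Kcnq5. Kcna7, encoding Kv1.7, was at 2.41 TPM in replicate 2 and 2.01 TPM in replicate 1. Kcnq5, encoding Kv7.5, was at 1.08 TPM in replicate 2 and 1.07 TPM in replicate 1. Kcnd1, the third Kv4 gene, was at 0.06 TPM in replicate 2 and 0.11 TPM in replicate 1, and 3 of the 32 genes had 0 counts in both hearts.

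Over the 39 alpha subunit genes described here, members included, which summed to 101.66 TPM in replicate 2 and 116.52 TPM in replicate 1, Kcng2 held the highest share. It made 40.7% in replicate 2 and 53.9% in replicate 1, above Kcnh2 with 26.8% in replicate 2 and 16.3% in replicate 1. The silent Kcng2 was also lower in replicate 2, at a centred log2 ratio of -0.42 with credibility intervals apart.

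**Figure D5:**
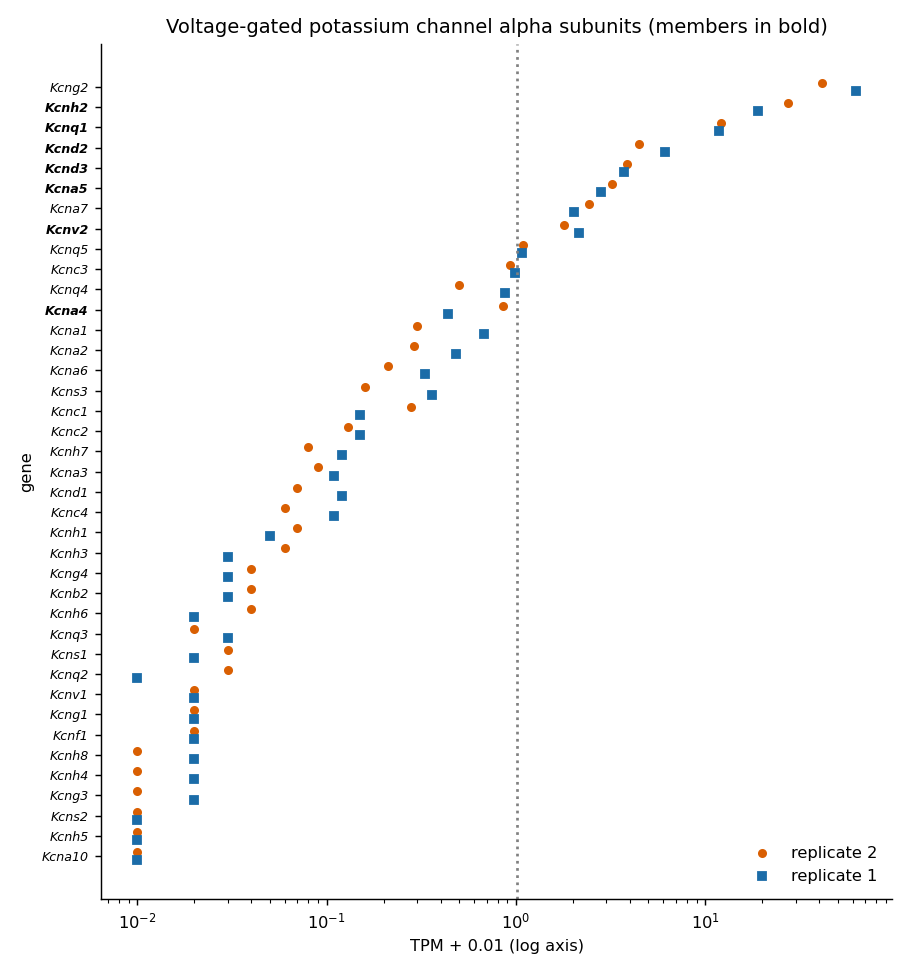
TPM + 0.01 on a log axis for 39 voltage-gated potassium channel alpha subunit genes, with replicate 2 as circles above replicate 1 as squares and members in bold. The dotted line marks 1 TPM. Kcng2 is highest, and 29 of the 32 genes that are not members lie below 1 TPM in both hearts.

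Other accessory genes were mostly low. Of 13 listed, 1 reached 1 TPM in both hearts: Akap9, the anchor that ties kinase and phosphatase to the Kcnq1 channel, at 17.18 TPM in replicate 2 and 17.46 TPM in replicate 1. Kcnab1, a beta subunit of Kv1 channels, was at 0.56 TPM in replicate 2 and 0.84 TPM in replicate 1. Dpp6, a membrane partner of Kv4 channels in neurons, was at 0.16 TPM in replicate 2 and 0.26 TPM in replicate 1. Kcne2, an accessory subunit studied with Kcnh2, had 0 counts in both hearts. The limit that a count of 0 allows, 3 counts, corresponds to 0.0567 TPM in replicate 2 and 0.0571 TPM in replicate 1, counting error only.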

How the data were processed

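Both libraries were made with a directional kit from 300 ng of total RNA, per the labels' protocols. The authors deposited, per library, a gene table and a transcript table derived from alignments and a transcript table derived from reads (FASTQ), on mm10 with GENCODE M21 per the submitters' processing notes and the deposited description files. No quantification tool is named in the sources used here. Per the file headers the deposited units are expected counts (estimated counts that need not be whole), TPM, the isoform percent (IsoPct) and credibility bounds (a score on the TPM scale). The sources used here do not state the interval level of the bounds. The mm10 reference is C57BL/6J, so CAST/EiJ reads may be assigned less well. Both libraries carry the same donor identifier, read here as the strain. Their animal numbers make n = 2.

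From these tables, means ± SD over 2 hearts, ratios of log2(TPM + 0.01) within a heart, isoform shares of TPM, and centred log2 ratios of TPM + 0.1 between the hearts were computed. Such ratios understate differences of low genes. Genes were compared where the mean reached 1 TPM and both libraries together held 20 expected counts. Depth was 41468698 estimated counts in replicate 2 and 43782858 in replicate 1 in the FASTQ-derived tables. Without molecular identifiers, reads are not independent molecules, so limits from counts cover counting error only. No test was made because there is 1 group. The 2-fold calculation was run on simulated counts drawn without variation between animals. That run checks the calculation only and does not cover the spread between real hearts. TMM factors came from edgeR 4.0.16 in R 4.3.3, as a scaling only, and the rest from Python 3.11.15 with pandas 2.3.3.

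The rule for named genes took all 9 members, other listed genes at 1 TPM or more in both hearts and named partners (Kcnd1, Kcne2, Kcnab1, Dpp6, Akap9, Irx3, Irx4, Irx5, Kcnq1ot1), and isoforms of at least 10% in either table. Other genes and isoforms (Kcna6, Kcnd3os, Gm26673, markers, Kcnip2-208, Kcnip2-203, Kcnd3-203) were named after their values were seen. A further listed gene is not reported here and was left out of the lists and sums. The members and lists were chosen with earlier results of these data known. Alternatives were other thresholds, tables, pseudocounts, scalings and each heart alone.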

Additional observations from a re-analysis of the deposited data

How the results depend on the processing

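Among the recomputed values of the summary counts and the 6 gene ratios, 57 stayed within the spread between the hearts or within 1.5 times the count, and 5 moved. None changed direction. At 5 TPM, 3 members were expressed in both hearts. Of the 8 compared members, 1 was 1.5-fold or more apart between the hearts. In expected counts, which are not per length, the log2 ratio was 2.63 for Kcnip2 over Kcnd2 and 3.54 for Kcnq1 over Kcne1. Kcnq1 over Kcne1 gave 2.44 in the FASTQ-derived table. With each heart alone the ratios ran between 0.19 and 0.72 for Kcnd2 over Kcnd3, 2.39 and 3.80 for Kcnd2 over Kcna4, and 1.91 and 2.67 for Kcna5 over Kcna4. They ran between 3.74 and 4.08 for Kcnip2 over Kcnd2, 2.04 and 2.26 for Kcnq1 over Kcne1, and 0.68 and 1.16 for Kcnh2 over Kcnq1. With 2 hearts a single heart always lies within 1 SD of the mean. These 6 ratios from each heart alone are among the 57 and could only count as stayed. With each heart alone, 8 members were expressed and 9 had the same main isoform. For single genes and isoforms 104 values stayed and 31 moved. Among these, ratios between the hearts were judged against limits from counts, and a change of sign within those limits counted as stayed. Without centring 5 of these ratios moved and 4 stayed. Kcnip2 went from 0.05 to -0.13 and moved, and Kcne1 went from 0.00 to -0.18 and stayed. The 31 include the TPM of all 9 members when rescaled to nuclear protein-coding genes, a scaling that raises every level. The 104 include 9 TPM values from each heart alone, which could not move. They also include the isoform shares of Kcnd2, Kcna5 and Kcnv2, which are fixed by their 1 annotated transcript. No paired analysis was possible because there is 1 group. Low depth limits Kcna4 and Kcne1, and short transcripts (Kcna4-202, Kcne1-202) and transcripts with few or no stretches of their own limit the isoform shares.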

Other observations

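Irx3, Irx4 and Irx5, Iroquois transcription factors of the heart, each reached 1 TPM or more in both hearts. Irx3 was at 12.99 TPM in replicate 2 and 10.16 TPM in replicate 1, and Irx4 at 13.15 TPM in replicate 2 and 10.22 TPM in replicate 1. Irx5, reported as a repressor of Kcnd2 in mouse heart, was at 4.34 TPM in replicate 2 and 3.73 TPM in replicate 1. Their centred log2 ratios of replicate 2 over replicate 1 were 0.53, 0.54 and 0.40, with credibility intervals apart for Irx3 and Irx4 and overlapping for Irx5, while that of Kcnd2 was -0.28. With 2 hearts no relation between these genes can be tested. The antisense RNA Kcnq1ot1 had 0.17 TPM from 528 counts in replicate 2 and 0.29 TPM from 917 counts in replicate 1, with intervals apart, while the intervals of Kcnq1 overlapped.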
